A study of Homo sapiens with 4 samples.

Results

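The genes that encode the NF-kappaB subunits, their IkappaB inhibitors and the kinase NIK were compared between *SOX2* knockdown and mock knockdown in LN229, an established glioblastoma cell line of human origin. Knockdown used siRNA, short RNA duplexes that lead a cell to destroy the transcript they match, and mock cells received siRNA with no target. The 10 genes are *NFKB1*, *NFKB2*, *REL*, *RELA*, *RELB*, *NFKBIA*, *NFKBIB*, *NFKBIE*, *BCL3* and *MAP3K14*, found by their symbols on the array and not by their values. They are 10 of 27739 gene features on the arrays, and all 10 passed the filter on dim signals that left 18378 features. Each group has 2 arrays, 4 in all, and each array measured total RNA of 1 sample in 1 colour by chemiluminescence (Applied Biosystems). Both groups were LN229 cells cultured in DMEM, both were transfected, and the knockdown is transient, so each comparison is between RNA of whole cultures. A lower signal from fewer expressing cells and one from less RNA per cell cannot be told apart. Which of the 2 *SOX2* siRNAs of the study's methods was used for the arrays is not given in the sources used here. *NFKB2*, *NFKBIE* and *MAP3K14* are among the genes that the study itself picked on these samples, so their values here are not independent of that choice. The study states that it drew them at random from genes higher after knockdown, and reports that RT-PCR bore out the array result.

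NF-kappaB proteins are dimeric transcription factors that sit in the cytoplasm until a signal frees them. In the canonical pathway, receptors such as the TNF and IL1 receptors activate the IKK complex, which marks IkappaB proteins for degradation and releases dimers such as p50 (from *NFKB1*) with RelA. In the noncanonical pathway, receptors such as LTBR, CD40 and TNFRSF12A stabilise NIK (*MAP3K14*), which drives the processing of p100 (from *NFKB2*) to p52, the partner of RelB. In glioblastoma NF-kappaB activity is known for its link to a mesenchymal and inflammatory state. Several of the genes are themselves known targets of NF-kappaB, *NFKBIA*, *NFKB2*, *RELB* and *NFKBIE* among them.

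RefSeq promoter windows (GRCh38.p14, 250 bases before to 50 after a transcription start) were listed for 8 of the 10 genes, with 13 windows in all, since a gene can have several starts. The kappaB consensus, the site that NF-kappaB dimers bind, was searched on both strands, and 5.91% of all 35116 windows held a match. It was found in 7 of the 13 windows, from 6 genes, and *NFKB2*, *NFKBIA*, *NFKB1* and *MAP3K14* are shown because they include genes on both sides of the comparison between the canonical and the noncanonical group. Capitals mark the matches, overlapping matches are joined, and each sequence is given 5' to 3' on the strand of its gene.
NFKB2, chr10:102394328-102394627, plus strand: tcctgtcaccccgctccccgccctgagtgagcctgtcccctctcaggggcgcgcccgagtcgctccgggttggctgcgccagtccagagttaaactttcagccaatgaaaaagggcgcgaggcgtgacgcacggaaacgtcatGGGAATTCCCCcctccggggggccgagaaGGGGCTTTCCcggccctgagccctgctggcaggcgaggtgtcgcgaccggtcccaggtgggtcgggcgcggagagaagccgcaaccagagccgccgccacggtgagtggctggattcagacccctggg
NFKB2, chr10:102395455-102395754, plus strand: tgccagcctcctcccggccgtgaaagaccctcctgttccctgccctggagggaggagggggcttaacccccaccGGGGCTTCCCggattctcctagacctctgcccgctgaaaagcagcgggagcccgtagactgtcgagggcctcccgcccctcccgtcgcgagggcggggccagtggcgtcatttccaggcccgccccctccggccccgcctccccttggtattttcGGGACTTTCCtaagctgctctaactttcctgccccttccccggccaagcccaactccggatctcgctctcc
MAP3K14, chr17:45316971-45317270, minus strand: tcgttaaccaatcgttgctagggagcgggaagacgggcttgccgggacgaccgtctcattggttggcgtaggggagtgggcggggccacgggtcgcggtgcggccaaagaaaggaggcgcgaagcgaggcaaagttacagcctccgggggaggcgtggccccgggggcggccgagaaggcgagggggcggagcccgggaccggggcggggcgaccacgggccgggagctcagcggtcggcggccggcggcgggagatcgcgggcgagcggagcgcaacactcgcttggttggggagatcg
NFKBIA, chr14:35404700-35404999, minus strand: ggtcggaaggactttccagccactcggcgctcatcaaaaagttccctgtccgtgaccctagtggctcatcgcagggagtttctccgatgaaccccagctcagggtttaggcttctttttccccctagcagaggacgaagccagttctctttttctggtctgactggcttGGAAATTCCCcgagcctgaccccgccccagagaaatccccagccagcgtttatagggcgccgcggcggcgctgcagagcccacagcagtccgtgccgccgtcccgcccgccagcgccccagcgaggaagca
NFKB1, chr4:102501109-102501408, plus strand: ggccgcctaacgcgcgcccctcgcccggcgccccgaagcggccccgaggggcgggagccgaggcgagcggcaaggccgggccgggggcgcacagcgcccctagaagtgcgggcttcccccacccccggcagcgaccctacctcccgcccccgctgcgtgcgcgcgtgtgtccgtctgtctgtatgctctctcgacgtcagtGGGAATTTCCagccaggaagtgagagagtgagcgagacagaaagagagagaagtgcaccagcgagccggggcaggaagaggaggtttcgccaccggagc

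The *NFKB2* windows held 4 separate sites, whose first bases lay at -107 and -78 from the transcription start of the first window shown and at -176 and -21 from that of the second. The site at -107 joins overlapping matches. A further *NFKB2* window upstream held none. *NFKBIA* had 1 site at -81 and *NFKB1* 1 at -49, while the *MAP3K14* window and both windows of *RELA* held no match. *REL* had GGGAAATTCCC at -47, *NFKBIB* had GGGAATTTCCC at -28 in its second window, and *BCL3* had GGGAAGTCCC with its first base at 3, past the start. A match describes the letters of the window and is not evidence of binding, and a window without one says only that these letters are not in it.

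All array signals below are scaled, with the 75th percentile of each array set to 1. Between 63.8% and 69.4% of the probes of an array exceeded 3 in S/N, the signal divided by its error, and with 2 arrays per group their number limits the precision of every value. The *SOX2* signal was 0.454 and 0.682 without and 0.204 and 0.145 with knockdown, which is the direction of the labels. The treatment label names SW620, a colon cancer line, where all other labels name LN229. On the arrays *VIM* (49.8 to 58.1), *CD44* (13.6 to 14.3) and *S100B* (24.7 to 40.3), genes of mesenchymal and glial cells, were well measured, whereas *GFAP* was dim (0.0997 to 0.164, S/N down to 3.80) and *CHI3L1* failed the filter. Of 8 colon epithelial markers, *CDH17* and *KRT20* had S/N of at most 1.42 and *EPCAM* failed the filter, while the feature listed for *CDH1* is shared with the ribosomal gene *RPL23A* and cannot be assigned to either. *KRT8*, on a feature shared with another symbol, was measured on all arrays (0.306 to 0.341, S/N of at least 16.1), *VIL1* was dim but measured (S/N of at least 3.46), and *CDX2* and *LGALS4* passed the filter through the mock arrays alone. None of the 5 colon markers kept passed the 2-fold cutoff, and neither did any of the 4 immune markers kept of 6, with *PTPRC* and *CD3E* failing the filter. Of 8 glial and mesenchymal markers 7 were kept, and *FABP7*, a fatty acid binding protein of radial glia, was lower after knockdown (mean 20.6 ± 2.01 against 10.1 ± 0.167, SD, n = 2 per group, a ratio of 0.492), and *S100B* (ratio 0.735) and *SPARC* (0.771) also had both knockdown arrays below both mock arrays. The part of these 3 differences in the results below was not tested.

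The genes of the noncanonical branch were higher after *SOX2* knockdown. Of those of the canonical branch, *NFKB1* and *RELA* (as the mean of its 2 probes) overlapped between the groups, and *NFKBIA* was 1.29-fold higher. *NFKB2* and *MAP3K14*, together with the inhibitor gene *NFKBIE*, passed the 2-fold cutoff on replicate means that the study's methods use, so 3 of the 10 genes were over 2-fold higher and 0 were over 2-fold lower. Over all features kept, 2.38% passed this cutoff in either direction, 1.47% higher and 0.909% lower. After Benjamini-Hochberg adjustment over the 18378 features, limma called none of the 10 at 0.05, and none of the others (0%). At an unadjusted p under 0.05 (limma), 5 of the 10 were higher and 0 lower, where 17.2% of all features passed, 8.12% higher and 9.07% lower.

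**Figure D1:**
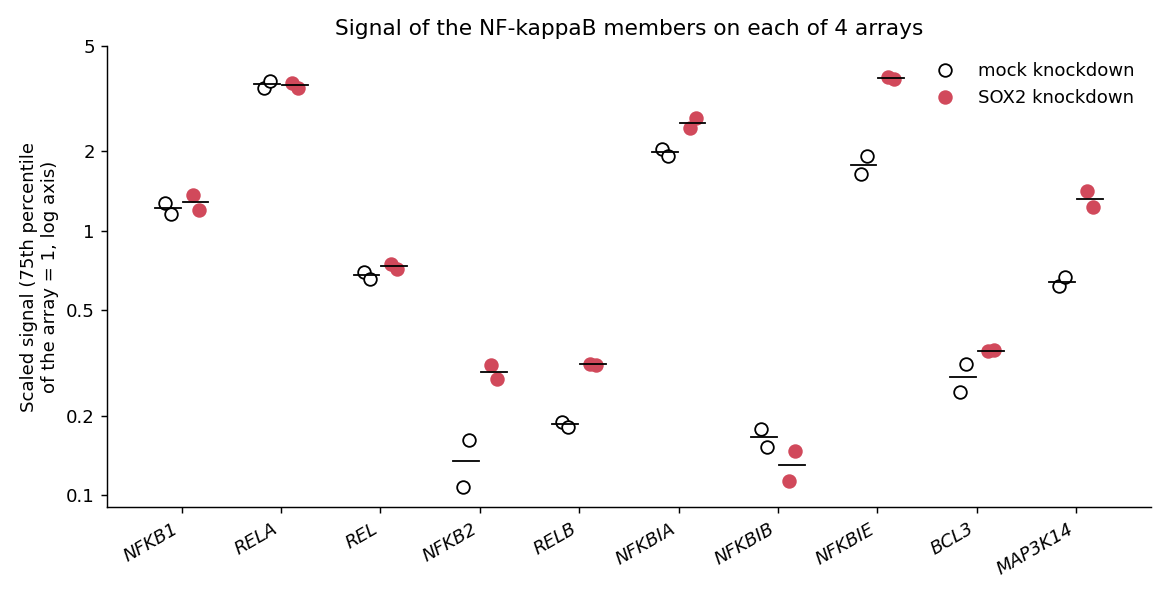
Scaled signal of each of the 10 genes (log axis, 75th percentile of the array = 1) on the 2 mock arrays (open circles) and the 2 *SOX2* knockdown arrays (filled circles), with bars at the group means. Both knockdown arrays lay above both mock arrays for 7 genes and below for *NFKBIB*, and heights are not compared between genes, since each has its own probe.

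Among the 5 subunit genes, *NFKB2*, which encodes the p100 precursor of p52, read 0.108 and 0.161 in mock knockdown and 0.310 and 0.275 after *SOX2* knockdown. Both knockdown arrays lay clearly above both mock arrays, and the mock arrays were further apart from each other than the knockdown arrays. The mean went from 0.134 ± 0.0380 to 0.292 ± 0.0249 (SD, n = 2 per group), a ratio of 2.17 and a log2 change of 1.15 (SE 0.24, adjusted p 0.14 in limma). *RELB*, which encodes the partner of p52, gave 0.189 and 0.181 in mock knockdown and 0.314 and 0.310 after knockdown. The replicates were close in both groups, and the groups did not overlap. The ratio was 1.69, under the 2-fold cutoff, with a log2 change of 0.75 (SE 0.12, adjusted p 0.112 in limma).

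*NFKB1*, which encodes the p105 precursor of p50, gave 1.28 and 1.16 in mock knockdown and 1.36 and 1.20 after knockdown. The groups overlapped, and the log2 change was 0.07 (SE 0.14), with a 95% interval from -0.31 to 0.45. *RELA*, which encodes the main transactivating subunit p65, gave 3.48 and 3.70 in mock knockdown and 3.61 and 3.48 after knockdown, again overlapping. Its log2 change was -0.02 (SE 0.12, interval from -0.35 to 0.31), so a 2-fold change in either direction lay outside the interval for both genes. *RELA* is the only one of the 10 genes with 2 probes, and the values above are their mean. The brighter probe, which dominates that mean, had a ratio of 0.978 and has no transcript identifier in the array annotation. The dimmer one, which is annotated with a *RELA* transcript, had a ratio of 1.18. It gave 0.322 and 0.297 in mock knockdown and 0.334 and 0.398 after knockdown, so on this probe the groups did not overlap.

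*REL*, which encodes c-Rel, a subunit best known from lymphocytes, gave 0.701 and 0.656 in mock knockdown and 0.748 and 0.719 after knockdown. The knockdown arrays were both higher, but by little, with a ratio of 1.08 and a log2 change of 0.11 (SE 0.12, interval from -0.22 to 0.45). Of the 5 subunit genes, the 2 of the noncanonical pair thus had the highest changes, and the median of the 5 was 0.11.

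The 3 classical inhibitor genes did not share 1 direction. *NFKBIE*, which encodes IkappaB-epsilon, an inhibitor of RelA and c-Rel dimers, gave 1.64 and 1.91 in mock knockdown and 3.83 and 3.75 after knockdown. The knockdown arrays were close to each other and far above both mock arrays. The ratio was 2.13 and the log2 change 1.10 (SE 0.14, adjusted p 0.101 in limma). *NFKBIA*, which encodes IkappaB-alpha, the inhibitor that NF-kappaB rapidly resynthesises, gave 2.05 and 1.92 in mock knockdown and 2.45 and 2.66 after knockdown. The groups were separated by a smaller step, a ratio of 1.29 and a log2 change of 0.37 (SE 0.13, interval from 0.02 to 0.71, adjusted p 0.268 in limma). *NFKBIB*, which encodes IkappaB-beta, was the one gene with both knockdown arrays below both mock arrays (0.178 and 0.153 against 0.113 and 0.147). Its log2 change of -0.36 (SE 0.19) had an interval from -0.87 to 0.15, and the second knockdown array lay just under the second mock array. It was -0.17 without *SOX2* knockdown replicate 1 and -0.55 without replicate 2. The only *NFKBIB* probe has no transcript identifier in the array annotation.

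*BCL3* encodes a nuclear IkappaB-like protein that works with p50 and p52 homodimers. It gave 0.246 and 0.314 in mock knockdown and 0.350 and 0.353 after knockdown. The knockdown arrays agreed closely while the mock arrays were apart, and the log2 change was 0.34 (SE 0.17, interval from -0.11 to 0.79). It was 0.16 without mock replicate 1 and 0.05 with normexp background correction (offset 50). *MAP3K14*, which encodes NIK, gave 0.618 and 0.666 in mock knockdown and 1.41 and 1.24 after knockdown. Both knockdown arrays were far above the mock arrays, with a ratio of 2.06 and a log2 change of 1.04 (SE 0.14, adjusted p 0.101 in limma). NIK is controlled mainly through the degradation of its protein, which these arrays do not measure.

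In 8 of the 10 genes the groups did not overlap, 7 higher and 1 lower after knockdown. Over all features 47.2% did not overlap, 21.6% higher and 25.7% lower. The S/N was at least 7.94 for every one of the 10 genes on every array, and none of their 11 probes carried a flag. The median log2 change of the 10 genes was 0.35, beside 0.0018 over all features kept.

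**Figure D2:**
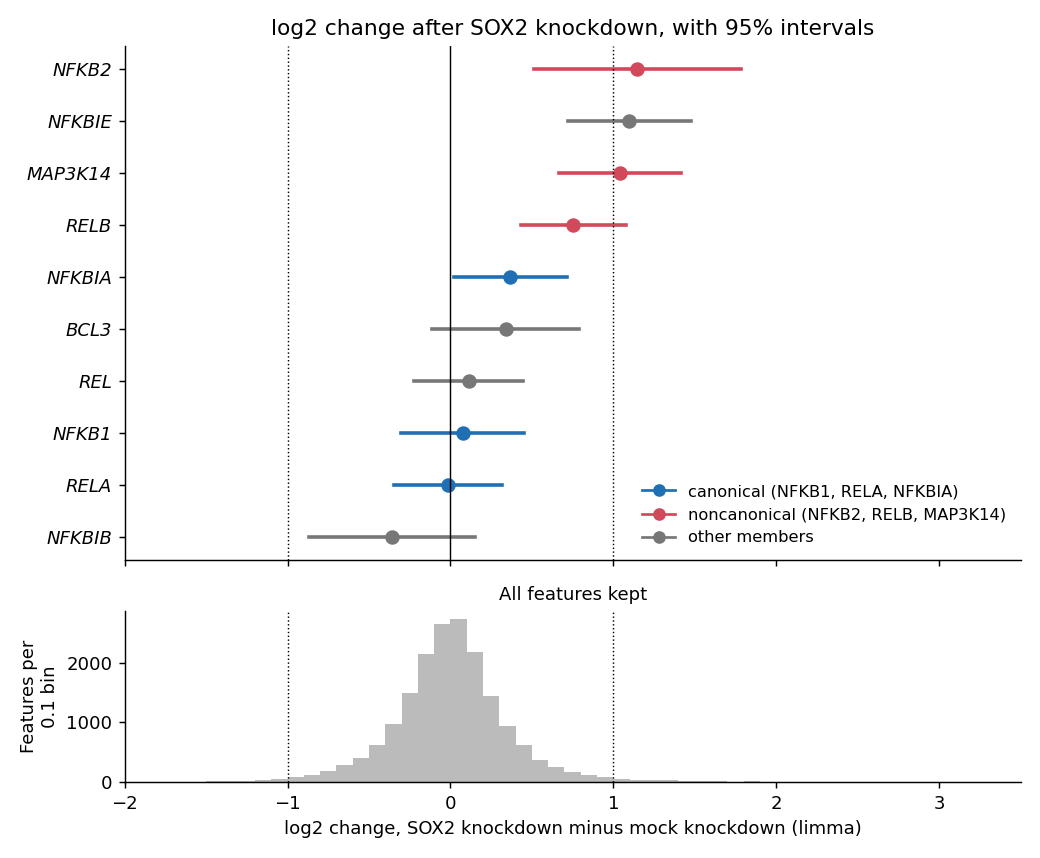
Upper panel, log2 change (*SOX2* knockdown minus mock knockdown) of each gene with its 95% interval from limma, coloured by branch. Lower panel, the same quantity for all 18378 features in bins of 0.1, with values beyond the axis counted in the end bins and dotted lines at a 2-fold change. The 4 genes at the top, *NFKB2*, *NFKBIE*, *MAP3K14* and *RELB*, have intervals wholly above 0, and those of the other genes except *NFKBIA* include 0.

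In order of log2 change, *NFKB2* (1.15), *NFKBIE* (1.10), *MAP3K14* (1.04) and *RELB* (0.75) came first, and the estimate of each lay inside the 95% interval of its neighbours in that order. *NFKBIA* (0.37) followed, and it and *RELB* lay outside each other's interval. *BCL3* (0.34) came next, then *REL*, *NFKB1* and *RELA*, and *NFKBIB* was last.

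To compare the branches directly, the log2 signals of *NFKB1*, *RELA* and *NFKBIA* (canonical) and of *NFKB2*, *RELB* and *MAP3K14* (noncanonical) were averaged on each array relative to their mean on the mock arrays. The canonical mean was 0.03 and -0.03 in mock knockdown and 0.16 and 0.12 after *SOX2* knockdown. It was slightly higher on both knockdown arrays, and *NFKBIA* contributed most of that step. The noncanonical mean was -0.10 and 0.10 in mock knockdown and 1.04 and 0.92 after *SOX2* knockdown, with the groups far apart. Subtracting the canonical from the noncanonical mean left -0.13 and 0.13 with control siRNA, against 0.88 and 0.79 when *SOX2* was targeted, so that the change of the noncanonical genes exceeded that of the canonical genes by 0.84 on the log2 scale (SD 0.18 in mock knockdown and 0.06 after knockdown, n = 2 per group).

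The lowest change among the noncanonical genes (*RELB*, 0.75) was above the highest among the canonical ones (*NFKBIA*, 0.37). With normexp background correction this order was reversed, and *RELB* (0.43) was below *NFKBIA* (0.47). In the main fit the 95% intervals of these genes overlapped, from 0.43 for *RELB* and up to 0.71 for *NFKBIA*. No p is given for the difference, since the genes were grouped with results known, and an exact two-sided permutation test of 2 arrays against 2 cannot go below p = 0.333.

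**Figure D3:**
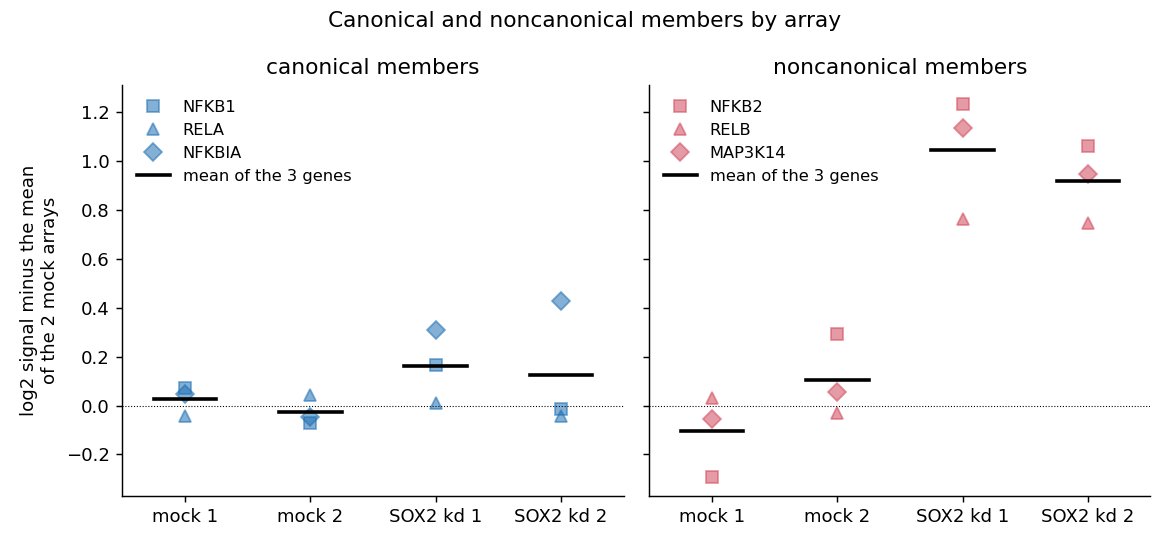
log2 signal of the 3 canonical (left) and 3 noncanonical genes (right) on each array, relative to the gene's mean on the 2 mock arrays, with black bars at the mean of the 3 genes. The noncanonical bars are at 1.04 and 0.92 on the knockdown arrays and the canonical bars at 0.16 and 0.12.

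The calls over 2-fold sat close to the cutoff and depended on single arrays. Without mock replicate 1, none of the 10 genes passed, with ratios of 1.81 for *NFKB2*, 1.98 for *NFKBIE* and 1.98 for *MAP3K14*, and without *SOX2* knockdown replicate 1 *MAP3K14* had a ratio of 1.92 and 2 genes passed. With normexp background correction, which here adds an offset of 50 to the corrected intensities, none passed either. The ratios were then 1.65, 1.95 and 1.84, and the branch difference was 0.54. The limma calls depended on the scaling and on the variance model. *NFKB2*, *NFKBIE* and *MAP3K14* had adjusted p (limma) of 0.0046, 0.00817 and 0.0152 with scaling to the array median. With the authors' ratio table the values were 0.0041, 0.00733 and 0.0135, and with a variance trend 0.0954, 0.0317 and 0.0395. With the replicate number as a block they were 0.373, 0.317 and 0.344.

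Whether other parts of the pathway differed was examined with lists of genes that are not among the 10. *NGFR*, *BIRC3*, *IL6* and *IL8* were named by the study on these samples, so their direction is not independent evidence. Counts and medians of the lists are over genes with S/N over 3 on all 4 arrays, since a gene that is dim in 1 group passes the filter through the other. Over all features that meet this stricter filter, 1.45% passed the 2-fold cutoff in either direction. Of 22 ligand and receptor genes, 10 were such, with 1 over 2-fold higher, 0 lower and a median log2 change of 0.06. *NGFR*, a receptor of the TNF receptor family that binds neurotrophins, was 0.767 and 1.02 in mock knockdown and 2.76 and 2.18 after knockdown, a ratio of 2.76. *TNFRSF12A*, the receptor for TWEAK and an activator of the noncanonical branch, was 4.79 and 5.39 against 9.02 and 9.06, a ratio of 1.78, with the groups apart. *TNFRSF11A*, which encodes the receptor RANK, overlapped between the groups (0.0995 and 0.0835 against 0.135 and 0.0915). *LTBR*, the lymphotoxin beta receptor, was similar in the groups, with a ratio of 0.922. The ligand genes *TNF*, *LTA* and *TNFSF11* and the receptor gene *CD40* had S/N of at most 1.46 on every array, so no change could be measured there.

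Of 24 adaptor and kinase genes, 22 had S/N over 3 on all arrays, with 1 over 2-fold higher, 0 lower and a median of 0.09. It was *BIRC3*, which encodes cIAP2, a ubiquitin ligase of the complex that degrades NIK and a known NF-kappaB target, at 0.0803 and 0.0877 in mock knockdown and 0.287 and 0.279 after knockdown (ratio 3.37). Of the other genes of that complex, *BIRC2* had a ratio of 1.03, *TRAF2* of 1.12 and *TRAF3* of 1.35, the last with uneven knockdown arrays (1.78 and 2.45). The IKK kinase genes *CHUK* and *IKBKB* had ratios of 1.15 and 1.06. *BCL10*, an adaptor downstream of antigen receptors, was 0.369 and 0.375 against 0.541 and 0.508, a ratio of 1.41.

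Of 16 regulators that restrain the pathway, 14 had S/N over 3 on all arrays, with 1 over 2-fold higher, 0 lower and a median of 0.02. *TNFAIP3*, which encodes the ubiquitin-editing enzyme A20, was 0.217 and 0.215 in mock knockdown and 0.625 and 0.600 after knockdown, a ratio of 2.84. *OTUD7B* (listed on the array as *ZA20D1*) had S/N down to 0.61 in mock knockdown and is not counted. *ITCH*, a ubiquitin ligase that works with A20, had a ratio of 1.58. *CYLD*, a deubiquitinase, was lower, at 0.358 and 0.393 against 0.292 and 0.273, a ratio of 0.752. Among the atypical IkappaB genes outside the 10, *NFKBIL1* had a ratio of 1.32 and *NFKBIZ* of 0.95, and *NFKBID* was not kept.

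Of 30 textbook target genes, 17 had S/N over 3 on all arrays, with 6 over 2-fold higher, 0 lower and a median log2 change of 0.55, the furthest from 0 of the 5 lists. *IL6*, a cytokine, was 0.0530 and 0.0665 against 0.624 and 0.614, a ratio of 10.4. The chemokine genes *CXCL3* and *IL8* (now *CXCL8*) had ratios of 7.38 and 2.26. *CXCL2*, whose mock signals had S/N of at most 1.80, passed the filter only through the knockdown arrays and is not counted. *PTX3*, a soluble pattern recognition protein, had a ratio of 7.18, *TNFAIP2* of 2.28, the transcription factor gene *IRF1* of 2.23 and *GADD45B* of 1.99. Other targets did not share the direction. *BCL2A1*, an anti-apoptotic BCL2 relative, was 6.93 and 8.38 in mock knockdown and 4.91 and 4.75 after knockdown, a ratio of 0.631, and *ICAM1* (0.934), *PTGS2* (0.873) and *CFLAR* (0.833) had ratios under 1. After adjustment (limma, Benjamini-Hochberg) 0 genes of the 5 lists were called, while at an unadjusted p under 0.05 there were 10 of the 17 target genes higher and 1 lower. Over the 18378 features kept, 8.12% were higher and 9.07% lower at that threshold. These shares were not computed for the stricter filter of the lists.

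**Figure D4:**
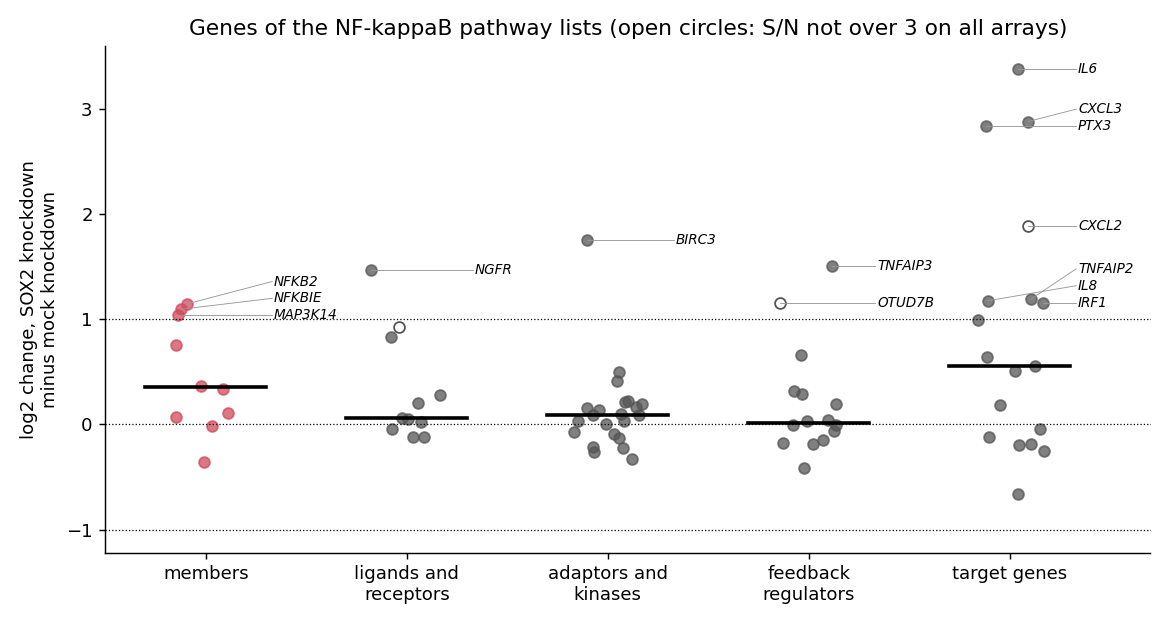
log2 change (*SOX2* knockdown minus mock knockdown) of every kept gene of the 10 (red) and of 4 pathway lists (grey), with names for genes beyond a log2 change of 1. Open circles are genes without S/N over 3 on all arrays, and black bars are medians of the others, at 0.35 for the 10 genes, 0.06, 0.09 and 0.02 for the receptor, adaptor and regulator lists, and 0.55 for the targets.

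The features whose profile over the 4 arrays was nearest to that of *NFKB2*, among 13588 with a symbol and S/N over 3 on all arrays, were *GNRH1*, *TXNIP* and C21orf96, with root mean square differences of 0.02, 0.05 and 0.05 in centred log2 signal. Like *NFKB2*, they had a lower first than second mock array and a higher first than second knockdown array, for example *TXNIP* with 3.98 and 5.51 in mock knockdown and 10.7 and 9.49 after knockdown. They were chosen for this likeness over 4 arrays, so their values are a description.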

How the data were processed

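Source names in the labels gave the groups and sample titles the replicate numbers. The labels give 250 ng of total RNA per labelling, and the study's methods describe the 2 replicates of a group as separate transfections. Per the file headers the deposited scanner files hold, for each feature, linear intensity columns, an S/N score (signal over its error) and flags. The authors' software had normalized the intensity used here to a median probe of about 1, and its version is not given in the sources used here. The authors' second deposited table holds linear ratios, scaled per array and then divided by the probe's median over the arrays for 25.1% of the probes compared and by 1 constant for all others, and was used as an alternative. Its column medians were 0.102 on all 4 arrays, and differences between arrays matched the scanner signals within 0.02 on the log2 scale, apart from 1 constant per array, for 100% of 25351 probes above the floor, which settled that it is linear and which way it runs.

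Control features and 210 probes with a flag of 5000 or more were left out, probes of 1 Celera gene ID were averaged, each array was divided by its 75th percentile, values were floored at 0.01 and log2 was taken. A feature was kept where both arrays of either group exceeded 3 in S/N (18378 of 27739). Where a symbol had several features the brightest was used. Ratios are of linear means (2-fold cutoff of the study's methods), and limma 3.58.1 (R 4.3.3; lmFit and eBayes, two-sided, Benjamini-Hochberg) was tested on simulated data. p-values rest on the spread between 2 arrays per group, which limma draws toward the spread typical of all features, so they are not measures of a gene's own spread alone. The 10 genes and all lists were chosen with earlier results of these data known. From each list the genes over 2-fold with S/N over 3 on all arrays (at most 6) and the next 2 by size are named, and others were named after their values were seen. 5 list genes were found under older symbols through RefSeq's gene table. Alternatives changed 1 choice at a time (scaling, background, floor, filter, probes, variance model, block, cutoff, genes counted as canonical, each array left out). A crossed pairing and the restriction of the pathway lists to genes with S/N over 3 on all arrays were added after seeing the data. Sequences are from RefSeq (GRCh38.p14). The array files name no genome build.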

Additional observations from a re-analysis of the deposited data

How the results depend on the processing

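The log2 changes of the 10 genes were recomputed under 17 alternatives each. Other floors or filters, the blocks and the variance trend gave each gene its main value, so they could not test the direction. The changes of *NFKB2* (0.73 to 1.44), *NFKBIE* (0.97 to 1.21), *MAP3K14* (0.87 to 1.14), *RELB* (0.43 to 0.79), *NFKBIA* (0.31 to 0.47), *REL* (0.06 to 0.18), *BCL3* (0.05 to 0.52) and *NFKBIB* (-0.55 to -0.17) kept their direction in all the other alternatives too. *RELA* (-0.02) was 0.012 with quantile normalization, -0.14 with normexp and -0.060 to 0.028 with 1 array left out, above 0 without mock replicate 2 and without *SOX2* knockdown replicate 2 (0.011). With single probes it was -0.031, on the brighter probe. The dimmer probe, annotated with a *RELA* transcript (ratio 1.18), was not used alone in any alternative. *NFKB1* (0.07) was -0.016 to 0.16 with 1 array left out, below 0 without *SOX2* knockdown replicate 1. The count of 3 genes past 2-fold was 0 with normexp, 0 with a 3-fold cutoff (0.511% of all features) and 4, *RELB* included, with a 1.5-fold cutoff (9.86%), and between 0 and 3 when 1 array was left out. The share of all features past 2-fold was 2.38%, 1.02% with normexp, 1.57% with a floor of 0.05, 1.45% with S/N over 3 required on all arrays, 3.8% with no filter and 3.34% to 4.91% with 1 array left out. The branch difference of 0.84 was 0.54 with normexp and 0.71 to 0.97 with 1 array left out. It was 0.77 with *REL*, *NFKBIB* and *NFKBIE*, which are in neither group, counted as canonical. The count of 0 genes past an adjusted p of 0.05 in limma was 3 with median scaling, with no further scaling and with the authors' ratio table, and 2 (*NFKBIE* and *MAP3K14*) with a variance trend, where 669, 650, 639 and 240 of all features passed in place of 0 (3 with S/N over 3 required on all arrays). It was 0 in every fit that left out 1 array. The cause of these differences was not tested. The replicate number as a block does not enter the ratios, so the count past 2-fold stayed at 3. The count past the adjusted p was 0 with this block, as without it. Deviations of arrays with the same number correlated with r = -0.50 across features, which alone cannot settle whether the numbers pair samples. With the crossed pairing as a block 0 of the 10 genes passed the adjusted p (limma). Precision is limited by the 2 arrays per group, and the values differed with normexp background correction. That alternative also adds an offset of 50, and an offset by itself draws ratios of dim signals toward 1. With normexp the ratios of the 10 genes moved both ways. For example, *NFKB2* went from 2.17 to 1.65, toward 1, and *NFKBIB* from 0.785 to 0.733, away from 1. The part of the offset in the normexp values was not tested.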
